A study of Mus musculus with 2 samples.

Results

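Transcript models with a splice site that the annotation lacks were examined in the mouse heart. They were chosen by measured values: a model belonged here if both long-read libraries held the same chain of introns with at least 3 reads each, if both deposited tables gave it the class for an unannotated splice site, and if its new introns were not all within 12 bases of an annotated intron that shared their other end. The rule found 413 members in 358 genes, out of 616 models of the class that met the read limit and out of 14209 spliced models of any class that met it. The other 203 models of the class were left out by the 12-base limit. The number of members, their class and the size of their counts therefore describe the choice. The comparisons between the libraries below use the counts that the read limit was set on, so they are given as descriptions of the members and support nothing about the choice.

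The tissue was heart from female mice of strain B6CASTF1/J, a first-generation cross of C57BL/6J and CAST/EiJ, at 14 days of age. There was 1 group of 2 libraries, labelled biological replicates 1 and 2, each made from 2 µg of total RNA with spike-in RNA added, and no treatment or control group was labelled. The labels describe the animals of the libraries differently in separate fields, and both name the same donor record, so it is not known how many animals stand behind them. The spread between the libraries may thus be partly technical, and a p-value below speaks of these 2 libraries. The deposited counts came to 896941 reads in replicate 1 and 972159 in replicate 2. All 6 cardiomyocyte markers had at least 3 reads in each library, and the liver markers Alb and Apoa1 had 1 read between them in replicate 2 and 0 in replicate 1.

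Splicing removes introns between a donor site at the 5′ end of the intron, nearly always GT, and an acceptor site at its 3′ end, nearly always AG. A site that moves within an exon lengthens or shortens it, and a coding sequence stays in frame when the change is a multiple of 3. In the heart, alternative exons of sarcomere, calcium-handling and RNA-binding proteins are known to switch around birth, and some of the exons involved are very short. Long reads cover a whole transcript, so each read gives a chain of introns, but the position of every site rests on how the read was aligned to the genome.

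The bases at a new site could be read only where an annotated exon or a RefSeq promoter window covers that stretch of GRCm38 (mm10), since no genome of that build was used here. The first sequences show a new acceptor, a new donor and a new internal exon. Each runs 5′ to 3′ on the transcribed strand, and the capitals mark the intron bases at the new site. In Qk (chr17:10216430-10216459, minus strand), which encodes the splicing regulator quaking, 24 annotated coding bases up to the capitals AG were removed as intron. In Idh3a (chr9:54589891-54589920, plus strand), the catalytic subunit of a citric acid cycle dehydrogenase, the new donor GT cut the last 24 bases from a coding exon. In Abcd3, a transporter of the peroxisome membrane, a 70-base internal exon with both sites new lay at chr3:121787980-121788049 on the minus strand, and its ends are shown as the acceptor and donor windows.
Qk acceptor: cagcccttgccttttctcttgcAGcaactg
Idh3a donor: aaacagGTgacaagaggttttgctggtggt
Abcd3 acceptor: acttttcttttgcAGtggaataataagcag
Abcd3 donor: gcagctactccattgGTaaaccatgcaagc

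The next sequences show new donors that stood in place of a very short annotated exon. In the donor windows the first pair of capitals is the annotated donor and the second the new one, so the letters from the first capital up to the second pair are what the exon gained. The short exon below each window lay inside the new intron and was absent from the model. The windows are on chr7:4522290-4522315 (Tnni3), chr17:25585842-25585867 (Lmf1), chr1:182484177-182484206 (Capn2), chr14:24494066-24494095 (Rps24) and chr7:28310270-28310299 (Timm50).
Tnni3 donors: atggctgatgaGTatGTgaatcttcg
Tnni3 short exon: gagcagcgatgcg
Lmf1 donors: gggcagatctgGTaaGTagagcctct
Lmf1 short exon: gtattcttttg
Capn2 donors: tgagGTaccggcagaggatggGTggggctc
Capn2 short exon: gttccagaggag
Rps24 donors: gcagGTactgccattgggcacgGTgtgggg
Rps24 short exon: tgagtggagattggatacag
Timm50 donors: caagGTgaggagagtgagaggcagagGTgt
Timm50 short exon: attcctgatgaattcgacagcg
Atp2a2 short exon: aattgccggctgaagaag

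The members took few of the libraries' reads, and most had under 10 reads in a library. Members held 6556 reads in replicate 1 and 6861 in replicate 2, which was 0.741% and 0.715% of the reads outside spike-ins. The whole class held 16506 and 16875 models, of which 84.1% and 83.2% rested on 1 read. The median member had 6 reads in each library, 31 members had exactly 3 in both, and 95 had at least 10 in both. The 10 members with the most reads took 35.1% and 33.9% of all member reads.

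**Figure D1:**
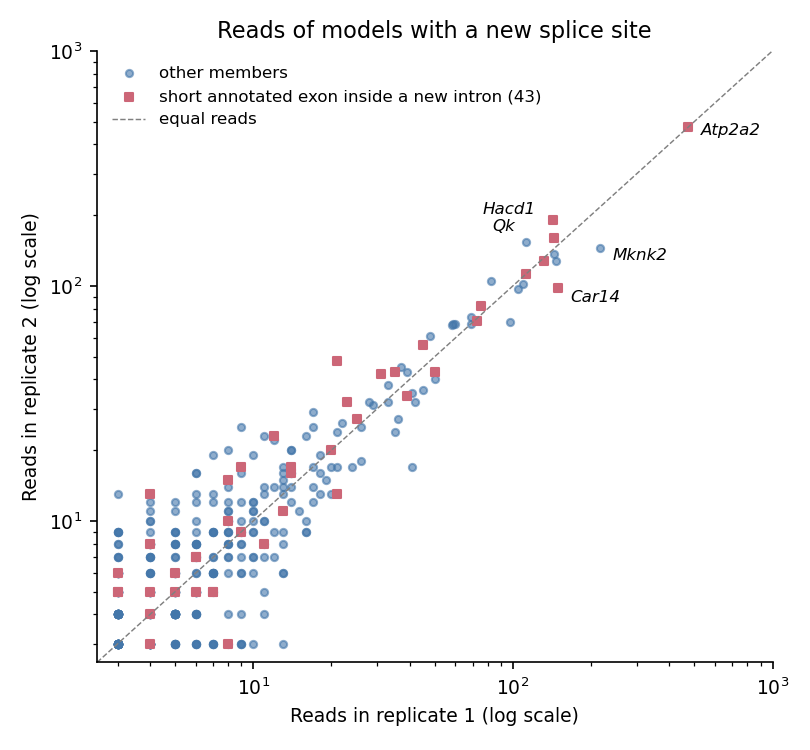
Reads of the members shown in replicate 1 (x axis, log scale) and replicate 2 (y axis, log scale), 1 point per model; squares are the 43 members with an annotated exon of at most 24 bases inside a new intron. The points lie along the dashed line of equal reads from 3 reads up to 474 in each library in Atp2a2, and Mknk2 and Car14 lie below it.

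Atp2a2 encodes the calcium pump SERCA2 of the sarcoplasmic reticulum and had 6 members. The one with the most reads had 474 in each library, which was 6.18% and 5.83% of a gene with 7664 and 8125 reads. Its new first intron ran from chr5:122500814 to 122501563 on the minus strand. A further pair of members shared a new donor near the end of the gene and carried an internal exon of 57 bases (60 and 69 reads) or 116 bases (42 and 32 reads), both under 1% of the gene.

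Mknk2, a kinase of the translation factor eIF4E, had a member with 217 and 145 reads, 57.4% and 50.3% of the gene. Its new donor lay in an annotated untranslated region and shortened the first exon by 42 bases. Hfe2, the gene of hemojuvelin, a co-receptor for bone morphogenetic proteins, had a member with 146 and 127 reads (47.7% and 43.6%) whose acceptor lengthened an exon by 18 bases. The Qk form with the 24 bases removed had 112 of 249 and 154 of 319 reads of the gene, beside 54 and 63 on annotated models. The Idh3a form had 45 and 36 reads, and there annotated models took 1574 and 1672 of 1706 and 1801 reads. A removal of 24 coding bases was thus in the form with the most reads in Qk and in 2.64% and 2.00% of the reads in Idh3a.

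Other members among those with the most reads were in metabolic and housekeeping genes. Hacd1, an enzyme of very-long-chain fatty acid synthesis, had 143 and 191 reads (80.3% and 80.9% of the gene). Cct6a, a subunit of the cytosolic chaperonin, had 144 and 160 reads (91.1% and 86.5%). Capn2, the catalytic subunit of a calpain protease, had 112 reads in each library (94.9% and 92.6%). Bsg, a membrane partner of monocarboxylate transporters, had 144 and 137 reads, but in a gene of 2494 and 2902 reads this was 5.77% and 4.72%. Sbk1, a protein kinase gene, had 109 and 102 reads (77.3% and 79.1%) on a model that began in a first exon of 875 bases at chr7:126248238-126249112, in no annotated exon. The locus Gm49708 had 82 and 105 reads (95.3% and 89.7%), and its share is uncertain, because with the genomic class counted in it moved by 28.1 points.

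**Figure D2:**
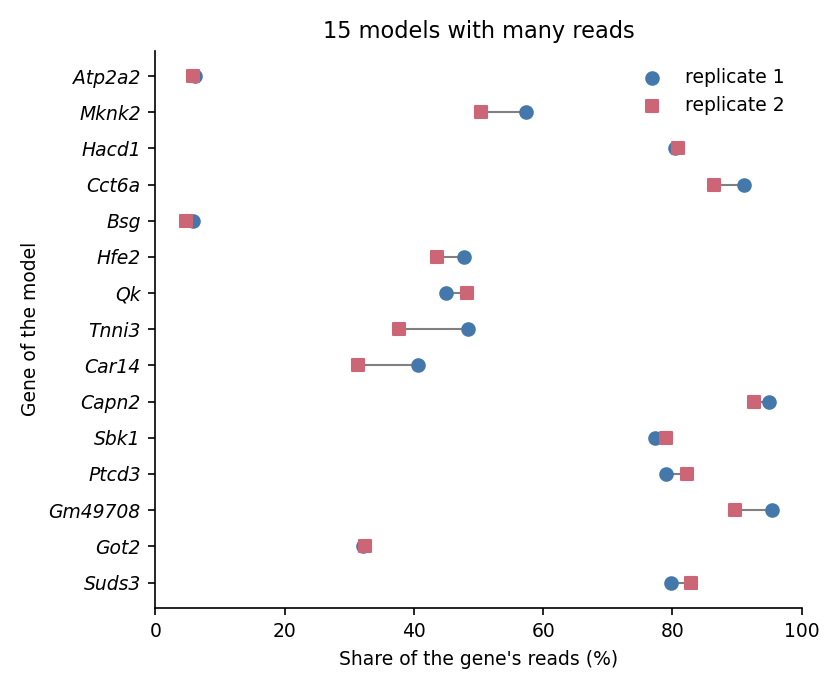
Share of the gene's reads (x axis, %) taken by each of 15 members among those with the most reads, in replicate 1 (circles) and replicate 2 (squares). Shares lay near 80% or above in members such as Hacd1, Cct6a, Capn2 and Gm49708 and near 6% in Atp2a2 and Bsg, and the distance between the libraries was widest in Tnni3.

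Over all members the median share of the gene was 6.58% in replicate 1 and 6.33% in replicate 2. In genes with at least 20 reads in each library, which held 360 members, 22 members took at least 50% of the gene in both libraries, 58 at least 20%, and 166 under 5% in both. The highest mean share in genes of that depth was in Trim44, of the tripartite motif family, with 31 of 33 and 42 of 44 reads. Of 303 genes with a member and that depth, 17 had no read on a spliced annotated model in either library. The count was 9 of the 30 genes with a member over a short exon and 8 of the other 273. The former included Hacd1, Cct6a, Capn2, Col6a1, Suds3, Tnnt2 and Mybpc3, and the latter Ptcd3, Fhod3, Kcng2, Nnt and Atp5f1. Cct6a counts there only because a new intron contains such an exon, and it is not among the introns compared by length below. Reads of such a gene need not be on its member: in Atp5f1, with 1411 and 1613 reads, the member had 5 and 6. Genes of that depth without a member were not counted.

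Whether a member's share differed between the libraries was tested with Fisher's exact test per model, two-sided, on its reads and the other reads of its gene, adjusted by Benjamini-Hochberg over all spliced models. Over the 13839 models tested, 0.166% passed at 0.05. Of the 412 members tested 0 passed, and 14 had an unadjusted p under 0.05. The widest difference among members with at least 100 reads in each library was in Tnni3, from 48.4% of 273 reads to 37.7% of 337 reads (exact p = 0.00849, adjusted p = 0.812). Exact binomial tests of a model's reads against the library totals leave out the gene's other reads, so they compare abundance, not share. Of 14209 models 104 passed, and of 413 members 2 passed, Mknk2 and Car14. Both were lower in replicate 2 (binomial test, adjusted p = 0.00253 for 217 against 145 reads and 0.0235 for 149 against 98). All reads of the gene went from 378 to 288 in Mknk2 and from 366 to 313 in Car14. In bulk tissue, fewer cells of a type and less RNA per cell cannot be told apart behind such a difference.

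A second test asked, for each new intron, how often it was used among all reads with an intron sharing its donor or acceptor. Over 23730 introns of the whole series 0.00843% passed, and of 355 new introns of members 0 passed, with 10 at an unadjusted p under 0.05. The intron of the main Atp2a2 member was used by 553 of 6735 and 564 of 7225 spanning reads, 8.21% and 7.81%. The intron of the main Lmf1 member, in a gene that matures lipases, was used by 53 of 58 and 44 of 57 reads, 91.4% and 77.2%. New introns also occurred outside the members: 288 of the 476 distinct ones had further reads in other models.

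A new donor joined to an annotated acceptor was the most frequent kind, with 144 members and 2348 and 2485 reads. A new acceptor joined to an annotated donor followed with 80 members and 1774 and 1957 reads. Of the other kinds, 59 members began in a new first exon, 50 held an internal exon with both sites new, 30 had an intron within an annotated exon, 28 had an intron with both ends new, 11 ended in a new last exon, and 11 combined several kinds. New first exons were 14.3% of members and 8.67% of their reads over both libraries. The members had between 2 and 51 exons with a median of 9, against 8 for the 9575 annotated models with at least 3 reads in each library.

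**Figure D3:**
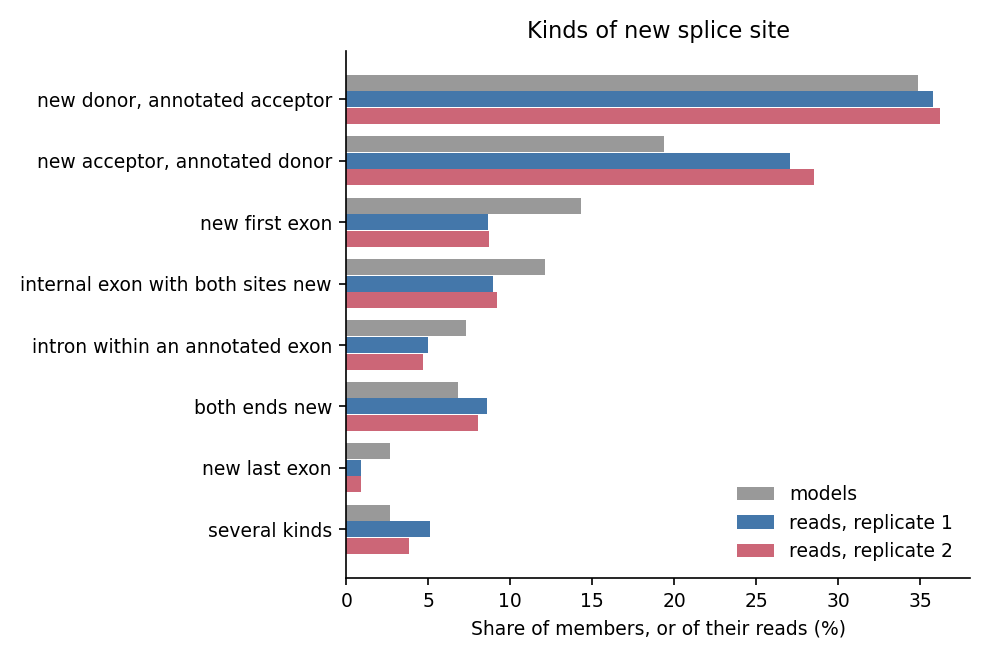
Share of the 413 members (grey bars) and of their reads in replicate 1 and replicate 2 (coloured bars) by kind of new splice site, in % (x axis). New donors led by models and by reads, and the bars for the libraries lie close together in every kind.

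Among internal exons with both sites new, the Abcd3 member had 69 and 74 reads, 55.6% and 59.2% of the gene, and over all models the introns on either side of its exon were in 80 and 83 and in 83 and 88 reads. Tmem65, which encodes a mitochondrial and intercalated disc protein, had an 81-base exon in a member with 59 and 69 reads, 23.0% and 23.6% of the gene. Fabp3, the fatty acid binding protein of the heart, had a 161-base exon in a member with 14 and 20 reads, under 1% of the gene. The 54 distinct exons of this kind had a median length of 86 bases, from 20 to 851, and the length of 20 of them was a multiple of 3. Both sites were unannotated in each, but 12 of these exons overlapped an annotated exon.

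New first exons were led by Sbk1 and by Tsc22d3, a glucocorticoid-induced leucine zipper protein. Tsc22d3 had 3 such members, with 50 and 40, 35 and 24, and 21 and 17 reads, in a gene whose reads fell from 399 in replicate 1 to 204 in replicate 2. Cmss1 had 24 and 17 reads, 64.9% and 70.8% of its gene. Casq2, the calcium store protein calsequestrin, had 17 and 14 reads, 1.32% and 1.00%. New last exons were thinly covered, and the one with the most reads, in the ubiquitin ligase gene Rnf130, had 12 and 9.

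Introns within an annotated exon were mostly in untranslated regions: of 31 distinct introns, 24 had both ends there and 5 had both ends in coding sequence. Acad12, of the acyl-CoA dehydrogenase family, had 33 and 32 reads (53.2% and 38.6% of the gene). B230219D22Rik had 28 and 32 reads (49.1% and 47.1%). Lpl, lipoprotein lipase, had 41 and 17 reads, 1.48% and 0.730% of a gene with 2776 and 2328 reads. Hbb-bs, an adult beta-globin gene, had 11 and 10 reads with 60 coding bases taken out (chr7:103826710-103826769, minus strand), and its ends read as follows, with the intron's outermost bases in capitals.
Hbb-bs donor end: atgatcgtgattGTgctgggccac
Hbb-bs acceptor end: gccttccagaAGgtggtggctgga

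A recurring geometry involved very short annotated exons. In 43 members, with 1789 and 1891 reads or 27.3% and 27.6% of all member reads, a new intron contained an annotated internal exon of at most 24 bases. They included the main members of Atp2a2, Hacd1, Cct6a, Tnni3, Car14, Capn2, Suds3 and Col6a1. The Cct6a intron, from chr5:129794561 to 129844936, is not among the 40 distinct introns compared next, each in place of 1 such exon. Compared with the annotated model that was closest and held the short exon, the new intron moved the neighbouring exons' ends by at most 40 bases in 37 of 40 distinct introns. In all 37 the neighbouring exons were as long as or longer than annotated. The bases gained came to within 9 of the short exon's length in 34, within 5 in 25, within 3 in 16 and to exactly that length in 4. The limits of 24 and 40 bases bound how far these lengths can differ, and the closeness that the limits alone would give was not tested.

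Tnni3, cardiac troponin I, the inhibitory subunit of troponin, had 4 members at such an exon. An annotated exon has 13 bases at chr7:4522070-4522082. The main member, with 132 and 127 reads, skipped those bases, and its upstream exon ended 4 bases beyond the annotated donor. Another, with 20 reads in each library, skipped them and gained 14 bases at the same donor. A further one, with 5 and 6 reads, skipped them and gained 24 bases at the next acceptor. The last, with 17 and 29 reads, kept the exon and extended it by 24 bases at its donor. In both libraries 0 reads carried the 13-base exon with its annotated ends, and 1 read in each joined the annotated sites on either side of it directly.

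In Atp2a2 the short exon has 18 bases at chr5:122500931-122500948. Here 6134 and 6619 reads carried it with both ends exact, against 553 and 564 reads of all models with the new intron, whose donor lay 4 bases beyond the annotated one. A second new donor of Atp2a2, 19 bases beyond, was in 11 and 9 reads over all models. In Capn2 the short exon has 12 bases and the upstream exon gained 17, in Hacd1 19 and 27, in Chmp1a (an ESCRT-III subunit) 20 and 25, and in Rps24 (a ribosomal protein) 20 and 18. In Timm50, a mitochondrial import protein, exon and gain were both 22 bases, with 3 and 7 reads over all models beside 128 and 169 that carried the exon. In Suds3, of a histone deacetylase complex, the 20-base exon was replaced by 4 bases upstream and 16 downstream, in 92 and 96 reads over all models. In Mybpc3, the sarcomere's myosin-binding protein C, a 12-base exon was replaced by 12 upstream bases in a member with 35 and 43 reads. That new intron contained 3 annotated internal exons, and 19 and 15 reads joined the annotated sites on either side directly. Of the 40 introns, 24 stood over a short exon that had 0 reads with exact ends in either library.

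The length of annotated exons moved with this over the whole series. Among annotated internal exons spanned by at least 20 reads in each library, 0 of 45 exons of 1 to 9 bases and 1 of 35 exons of 10 to 14 bases were carried by a read in both. The figure was 29.6% of 54 exons of 15 to 19 bases, 62.5% of 120 exons of 20 to 24 bases, 88.8% of 214 exons of 25 to 30 bases, and 97.0% of 25225 exons over 100 bases. Some annotated short exons are used only in other tissues or ages, and the part of read alignment in these members was not tested. Without the 43 members, 370 remained with 0.528% of reads and a median share of 6.19%.

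**Figure D4:**
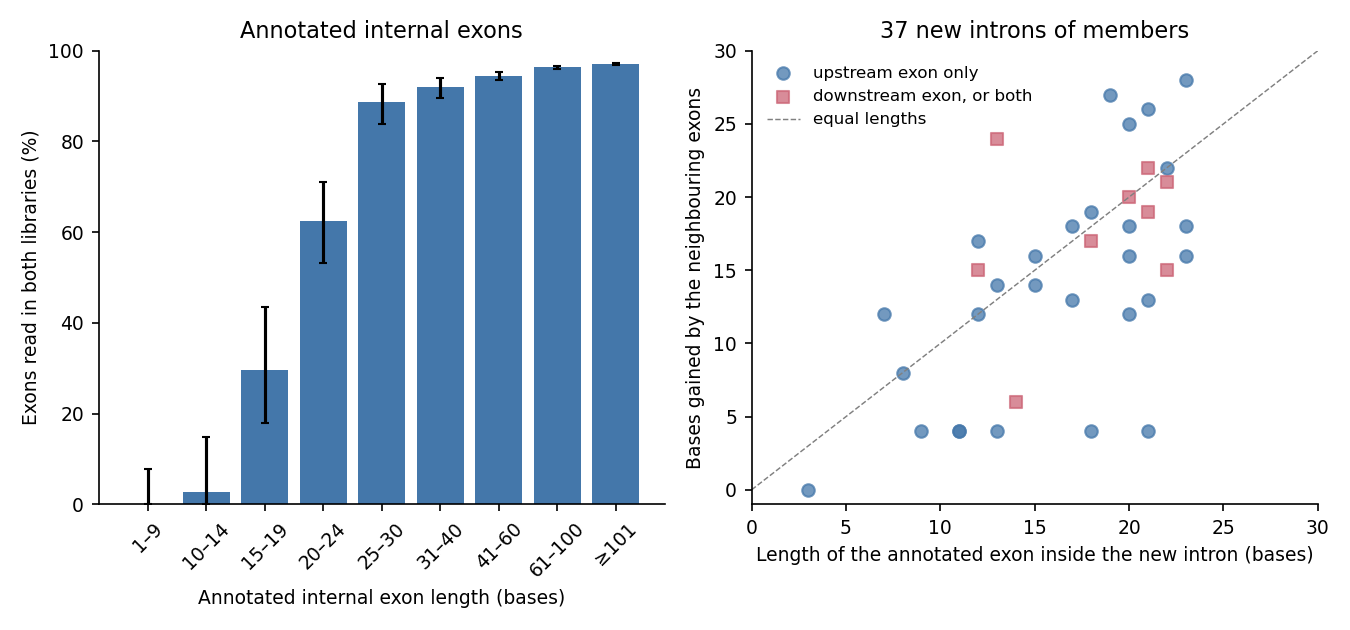
Left, share of annotated internal exons carried with exact ends by at least 1 read in each library (y axis, %), by exon length in bases (x axis), with exact 95% binomial intervals. The intervals treat exons as independent draws, and exons are not replicates. Right, bases gained by the neighbouring exons (y axis) against the length of the annotated exon inside the new intron (x axis) for 37 new introns, with equal lengths dashed; most points lie near the line, and 6 lie at a gain of 4 bases.

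New donors also clustered at a single offset. Of the 330 new introns with an unannotated donor, 27 had it within 12 bases of an annotated donor, and in 22 of those it lay exactly 4 bases downstream. None lay 4 bases upstream. In the 203 models left out, 30 of 89 unannotated donors were 4 bases downstream and 8 were 4 bases upstream, and 45 of 114 unannotated acceptors were 3 bases downstream. At 4 of the members' donors the annotated site could be read, and it was GTNNGT (N any base, transcribed strand only) in 3: Tnni3, Lmf1 and Mxra8. The same letters stood at 165 of 449 readable annotated donors of the members, 36.7%.

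In 12 introns with both ends new, both ends lay within 12 bases of 1 annotated intron, and in all 12 the donor was 4 bases downstream. The acceptor had moved too, by 3 to 10 bases downstream, and its last bases read AG each time. The donor bases could not be read in any of the 12, so these introns are not in the comparison of identical stretches below. Ptcd3, a factor of mitochondrial translation, led with 105 and 97 reads, 78.9% and 82.2% of the gene, and had 0 reads on a spliced annotated model. Got2, the mitochondrial aspartate aminotransferase, had 97 and 70 reads, 32.1% and 32.4%. In Ptcd3, Got2, Mttp and Pak6 both ends moved by 4 bases, so the spliced length stayed the same, and whether the spliced sequence changed was not tested. The annotated exon after the intron starts with the same 4 letters in each of these, shown here from its first base, with the AG of the new acceptor in capitals.
Ptcd3: gtAGattttttcagttggcc
Got2: gtAGagcggctgaccaagga
Mttp: gtAGcccccgtgcagcgtcc
Pak6: gtAGcaccaagcttctgggc

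**Figure D5:**
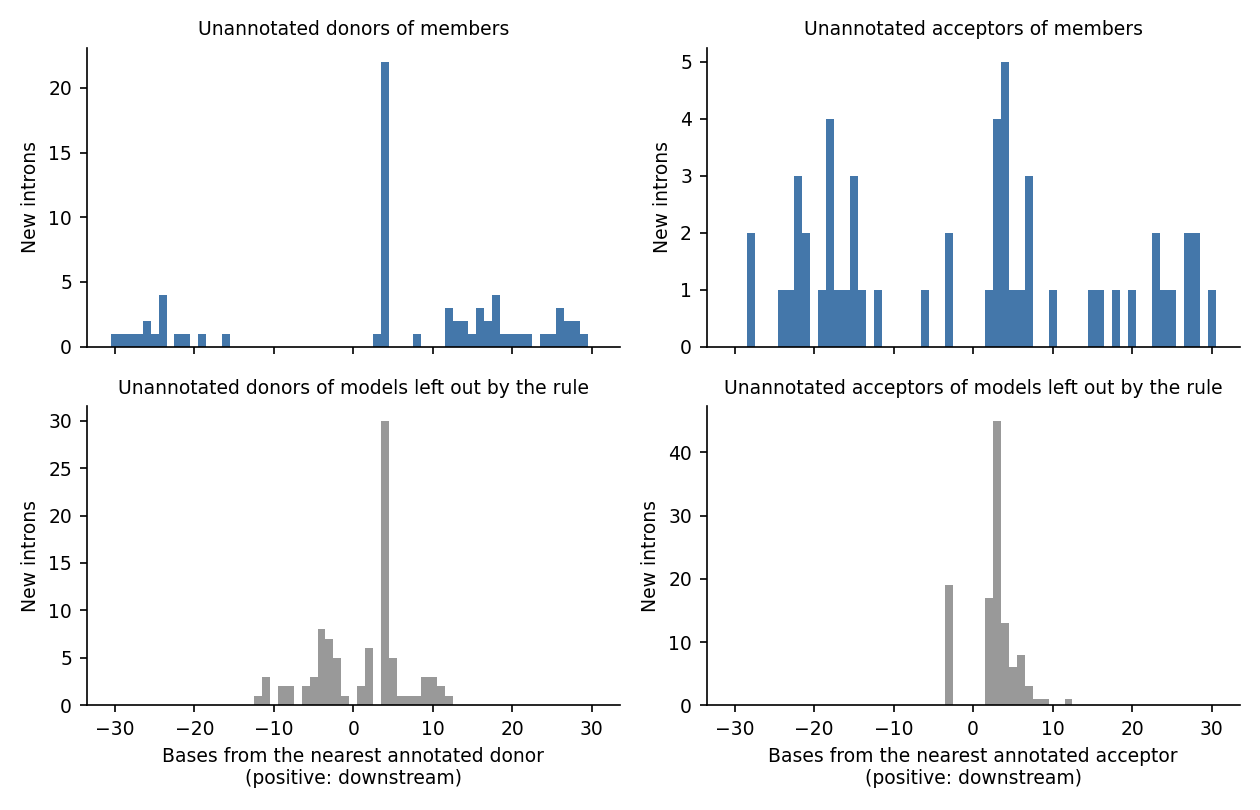
Number of distinct new introns (y axis) by the distance in bases of an unannotated donor (left) or acceptor (right) from the nearest annotated site of the same kind (x axis, positive downstream), within 30 bases, for members (top) and for models left out by the rule (bottom). A peak of 22 stands at 4 bases for members' donors and of 30 in models left out, and left-out acceptors peak at 3 bases.

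Where the bases could be read, most new sites had the usual letters. Of 127 readable unannotated donors, 114 were GT, 12 GC and 1 CT. Of 124 readable unannotated acceptors, 115 were AG, 8 AT and 1 GC. Both ends were readable in 110 new introns, and 86.4% of them (95% exact interval 78.5 to 92.2%) were GT-AG, 8 were GC-AG and 6 GT-AT. The interval treats introns as independent draws, but they are a chosen set and not replicates, so it does not measure a spread between animals or libraries. Annotated introns of the same models read GT in 456 of 461 donors and AG in 419 of 420 acceptors. The Lpl intron read CT-GC, which is GC-AG on the other strand. Readable sites are those inside annotated exons or promoter windows, so these shares do not stand for sites deep in introns.

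A few new introns lay between identical stretches. With both ends readable, 109 introns were compared for the number of bases that could be shifted from one end to the other without changing the spliced sequence. The median was 2 bases, the same as in 211 annotated introns. Of the new introns 6 had 10 or more and of the annotated introns 0, and 5 of the 6 lay within an annotated exon. A stretch could be followed only as far as its bases were readable, and an intron within an annotated exon is readable throughout. Stretches at other introns may have been cut short, so neither medians nor long stretches can be compared between the sets. In Gm1821 a 228-base intron was flanked by 143 identical bases, in a model with 3 and 6 reads. Ctdsp2 (44 identical bases) had 5 and 4 reads, Zfp970 (19) 6 and 3, Washc4 (16) 3 and 3, and Creb1 (15) 3 and 4. Each of these had at most 6 reads in a library.

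New introns were often the first of their model. This held for 46.4% of the 476 distinct new introns, and 94 of the 149 introns with a new donor and an annotated acceptor were first introns, against 29 of 89 with a new acceptor. Of unannotated donors 65.5% lay in no annotated exon, 17.3% in an untranslated region and 10.6% in coding sequence. Unannotated acceptors lay in coding sequence in 24.9%. New introns had a median length of 1630 bases, from 42 to 124136, against 1126 for the 3064 annotated introns of the same models.

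Among new donors and acceptors moved by 13 to 200 bases, 60 of 145 changes, 41.4%, were a multiple of 3. The share was 37 of 66 (56.1%) in members with 5 reads or more per library and 23 of 79 (29.1%) in the others. Weighted by reads it was 71.0%. The exon became longer in 73 and shorter in 72. Hfe2 (18 bases), Qk (24) and Mknk2 (42) were among the multiples of 3. Changes were counted wherever they lay, also in untranslated regions as in Mknk2, so these shares do not give how often a reading frame was kept.

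By function, members were found most often among genes of fatty acid oxidation, the contractile apparatus and the citric acid cycle. With 3 reads or more per library required of a gene, 9 of 25 genes of fatty acid oxidation held a member (36%), 11 of 35 of the sarcomere and Z-disc (31.4%) and 7 of 26 of the citric acid cycle and pyruvate (26.9%), against 3.55% of 9981 annotated genes. Depth moved with this: a member was found in 0.995% of genes with under 20 mean reads, 3.19% of those with 20 to 100, 9.85% of those with 100 to 500 and 58 of the 232 genes with more. The sarcomere members included models of Myh6, Myl3, Myl4, Actc1, Tpm1, Tnnt2, Tnni3, Tnnc1, Mybpc3 and Pdlim5. Apart from Tnni3 these had small shares, such as 6.70% and 7.62% for Mybpc3. Tnnt2, cardiac troponin T, had 14 and 17 reads on a member whose donor lay 4 bases beyond that of an annotated intron and whose new intron contained an annotated 11-base exon with 0 reads.

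Of 22 listed calcium-handling and ion channel genes, 4 held a member (Atp2a2, Casq2, Trdn and Srl). The potassium channel genes Kcng2 (48 and 61 reads), Kcnh2 and Kcnk3 (6 and 5 each) held members but were not on the list. The extracellular matrix list had 6 of 27, and nuclear oxidative phosphorylation 5 of 40. In the metabolic lists the shares were low: examples were 41 and 17 reads in Lpl, 45 and 36 in Idh3a, 12 and 14 in Idh3b (another subunit of the same enzyme), and 9 in each library in Cox4i1 (a subunit of cytochrome c oxidase, 0.181% and 0.149% of its gene). In the matrix list Col6a1, a chain of collagen VI, stood out with 73 and 71 reads, 51.4% and 68.9% of the gene. Of 42 listed splicing factors and RNA-binding proteins 1 held a member, Qk, of 27 listed genes of cytoplasmic translation 1, Rps24, and of 22 listed genes of mitochondrial translation 0. These counts hold for the lists alone. Outside them, members were found in the RNA-binding and splicing genes Hnrnpf (6 and 8 reads), Elavl1 (4 and 8), Sf3b3 (7 and 6), Snrpn (7 and 7) and Lsm6 (13 and 9). They were also found in Ptcd3 and in the mitochondrial ribosomal protein genes Mrps18a (8 and 9 reads), Mrps23, Mrps24, Mrps36 and Mrpl45. The genes outside the lists were picked after their values were seen.

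At the limits of the rule, the members nearest the 12-base limit were in Uckl1 (13 bases, 13 and 11 reads), Dut (14 bases, 14 and 16) and Pdlim5 (14 bases, 4 and 8). Just outside, at 12 bases, were models of Tfg (14 and 9 reads), Cxxc1 (3 and 4) and Atp2a2 (3 and 3). Agpat3, Bap1 and Bicdl1 had members at 3 and 3 reads, while models of Actc1 (2 and 13), Rap2c (2 and 11) and Htra3 (10 and 2) missed the read limit in 1 library.

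The deposited class was not the same for a chain in both libraries. By coordinates alone, 692 models of a gene had an unannotated site and met the same read and distance limits, with 10381 and 10831 reads. Of these, 413 were the members, 138 had the unannotated-site class in 1 library only and 141 in neither. An Hnrnpk form with 261 and 278 reads, in a gene of an abundant RNA-binding protein, had the unannotated-site class in replicate 1 and the class for new combinations of known sites in replicate 2. A Pdlim5 form with 174 and 182 reads had the latter class in both. Each library's classes were assigned separately, and why they differed was not tested.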

How the data were processed

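The authors deposited, per library, a table of the count of reads per transcript model (whole numbers, not normalized) and a paired list of exon coordinates. Per the file headers and the text deposited with them, models were quantified from filtered alignments on mm10 with GENCODE M21, and model attributes are those written by TALON. For the aligner and its settings, nothing is given in the sources used here. The libraries' models were joined on identical intron positions and strand. Spike-ins were left out, and shares of a gene use all classes but genomic. Reads between libraries were compared with two-sided Fisher's exact tests and Benjamini-Hochberg adjustment over all features (SciPy 1.17.1, Python 3.11.15, checked on simulated data). TMM totals (edgeR 4.0.16) and size factors (DESeq2 1.42.0) served in binomial alternatives. Bases came from GENCODE M21 transcripts placed by their exons and from RefSeq promoter windows on GRCm38. The members and gene lists were chosen with earlier results of these data known. Named are the 15 members with the most reads, the 10 with the highest share of genes with 20 reads, the leading 3 of each kind and list, those past a test, and those at the limits. Examples beside short exons, repeats and offsets were picked after their values were seen. Some members that the rule for names would include are not reported here; counts over all members include them.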

Additional observations from a re-analysis of the deposited data

How the results depend on the processing

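No paired analysis was possible because the study has 1 group. The number of members was 689 with at least 2 reads in each library, 213 with 5 and 95 with 10, and 692 by coordinates whatever the class, an alternative chosen after seeing the data; with 1 library alone it ranged from 850 to 884. Limits of 6, 20 or no bases gave 438, 395 and 616. The members' mean share of reads was 0.728%, and it was 0.752% without genomic reads in the total, 0.634% at 5 reads, 1.15% by coordinates and 0.528% without the members over short exons. Their median share of the gene was 7.64% over annotated, new-combination and new-site models only and 6.19% without those over short exons. Of 76 alternative values for the shares of 19 named members, 60 stayed within 1 SD. These include the values of 1 library alone, which lie within 1 SD of the mean of both libraries by construction. Every value that moved came from a change in the classes counted, so the count does not measure how stable the shares are. The 3 binomial tests of abundance (library totals, TMM, size factors) called 104, 103 and 104 of 14209 models, and each called 2 of 413 members. The test of shares called 23 of 13839 models and 0 of 412 members. Over annotated, new-combination and new-site models only, the test of shares called 6 of 11207 models and 0 of 411 members. With incomplete models left out, 21 introns were called in place of 2. Weighted by reads, new acceptors took 27.8%, internal exons 9.07%, new first exons 8.67%, new last exons 0.865% and introns within exons 4.83%, and multiples of 3 rose to 71.0%. At 5 reads new acceptors were 15.5% of members and multiples of 3 56.1%; at 10 reads new last exons were 0% and multiples of 3 58.1%. With 1 library alone, multiples of 3 ranged from 41.5% to 44.6%. The causes were not tested. The median member had 6 reads, so a difference between libraries in most members was not detectable at this depth.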

Other observations

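The airway gene Scgb1a1 had 111 reads in replicate 1 and 7 in replicate 2, and it held no member. The other listed lung marker, Sftpc, had 2 reads and 1 read. Of 4 listed skeletal muscle markers, Myh4 and Tnnt3 had 0 reads in both libraries. The others had many: 522 and 525 in Acta1, and 9120 and 9132 in Ckm. The allele of origin of the members' reads, C57BL/6J or CAST/EiJ, was not analysed here.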
